A study of Mus musculus with 12 samples.

Results

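The 38 genes described here are those of microglia and of neuroinflammation, chosen by symbol from a list that covers homeostatic microglia, myeloid lysosomes and Fc receptors, complement, toll-like receptors, NF-κB, cytokines that act on microglia, the interferon response with MHC class I, and *Apoe*. All 38 had values on at least 1 diet, among 17161 genes with values in the series, 37 on chow and 38 on the HFD. Hypothalamus RNA came from 12 male mice aged 8 weeks, in 4 groups of 3. The groups were WT (+/+) mice on a chow diet, *Gpr75-/-* mice on a chow diet, WT mice on a HFD for 2 weeks from the age of 6 weeks, and *Gpr75-/-* mice on the same HFD. The *Gpr75-/-* allele was made by CRISPR/Cas9 and ends translation soon after its start, in every cell of the animal, so a difference in microglia need not begin there. The question asked of these genes was whether the hypothalamus carried signs of inflammation linked to the diet, and whether they differed by genotype.

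Microglia are the resident macrophages of the brain. In the healthy state they carry receptors for ADP, for the neuronal chemokine fractalkine and for the growth factors CSF1 and IL-34, and when they respond to injury or infection they raise lysosomal, complement, interferon and cytokine genes. In rodents, diets rich in saturated fat are known to bring a reaction of microglia and astrocytes in the hypothalamus, where neurons that control feeding lie next to a leaky part of the blood-brain barrier.

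Each level below is the authors' mean for a group, given in CPM, and each difference is the log2 level in *Gpr75-/-* mice minus that in WT mice on the same diet. Values of single mice were not analysed here, so no SD, n or test stands beside a difference. In place of a test, a gene was counted as higher or lower at a fold of at least 1.2, a log2 difference of 0.26, and the share of all genes past the same fold is the background. Genes with a mean of at least 50 normalized counts on a diet were kept, 14240 on chow and 14326 on the HFD. The error from counting reads alone was 0.01 to 0.14 on the log2 scale for the members kept on either diet, and the rounding of the deposited means added 0.02 to 0.08. Neither covers the variation between mice.

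*Gpr75* itself (ENSMUSG00000043999, chromosome 11, 30835358 to 30843729, GRCm39) was at 16.7 CPM in WT and 24.6 CPM in *Gpr75-/-* mice on chow, and at 19.9 and 18.4 CPM on the HFD. The difference was 0.55 on chow, past 1.2-fold and higher in *Gpr75-/-* mice, and −0.11 on the HFD. The allele is described by the shortened protein it encodes, so an mRNA level does not check the genotype labels. The tissue label was checked against markers of hypothalamic neurons, of which 13 of 14 had values on each diet. *Pmch*, which encodes melanin-concentrating hormone, was the most abundant of them, at 245 CPM in WT mice on chow, and *Hcrt*, *Oxt*, *Avp* and *Pomc* were at 114, 110.0, 88.3 and 17.1 CPM. All 12 homeostatic microglia genes were kept on both diets.

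Few of the members differed by genotype at the fold used. On chow, 2 of the 33 members kept were past 1.2-fold, where 6.97% of all genes were (3.56% higher and 3.41% lower in *Gpr75-/-* mice). These were *Ifit3*, an antiviral gene induced by interferon, which was higher, and *Fcer1g*, the signalling chain shared by Fc receptors, which was lower. On the HFD, 1 of 33 was past the fold, where 5.03% of all genes were (2.74% higher and 2.30% lower). This was *Ptprc*, which encodes the leukocyte phosphatase CD45, and it was lower. The median difference of the members was 0.00 on each diet, as was that of all genes. The median size of a difference, whatever its sign, was 0.10 for the members and 0.07 for all genes on chow, and 0.08 and 0.06 on the HFD. At 1.1-fold, 11 of 33 members were past it on chow and 8 of 33 on the HFD, where 25.1% and 20.8% of all genes were. Whether the members differ more or less often than other genes was not tested.

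**Figure D1:**
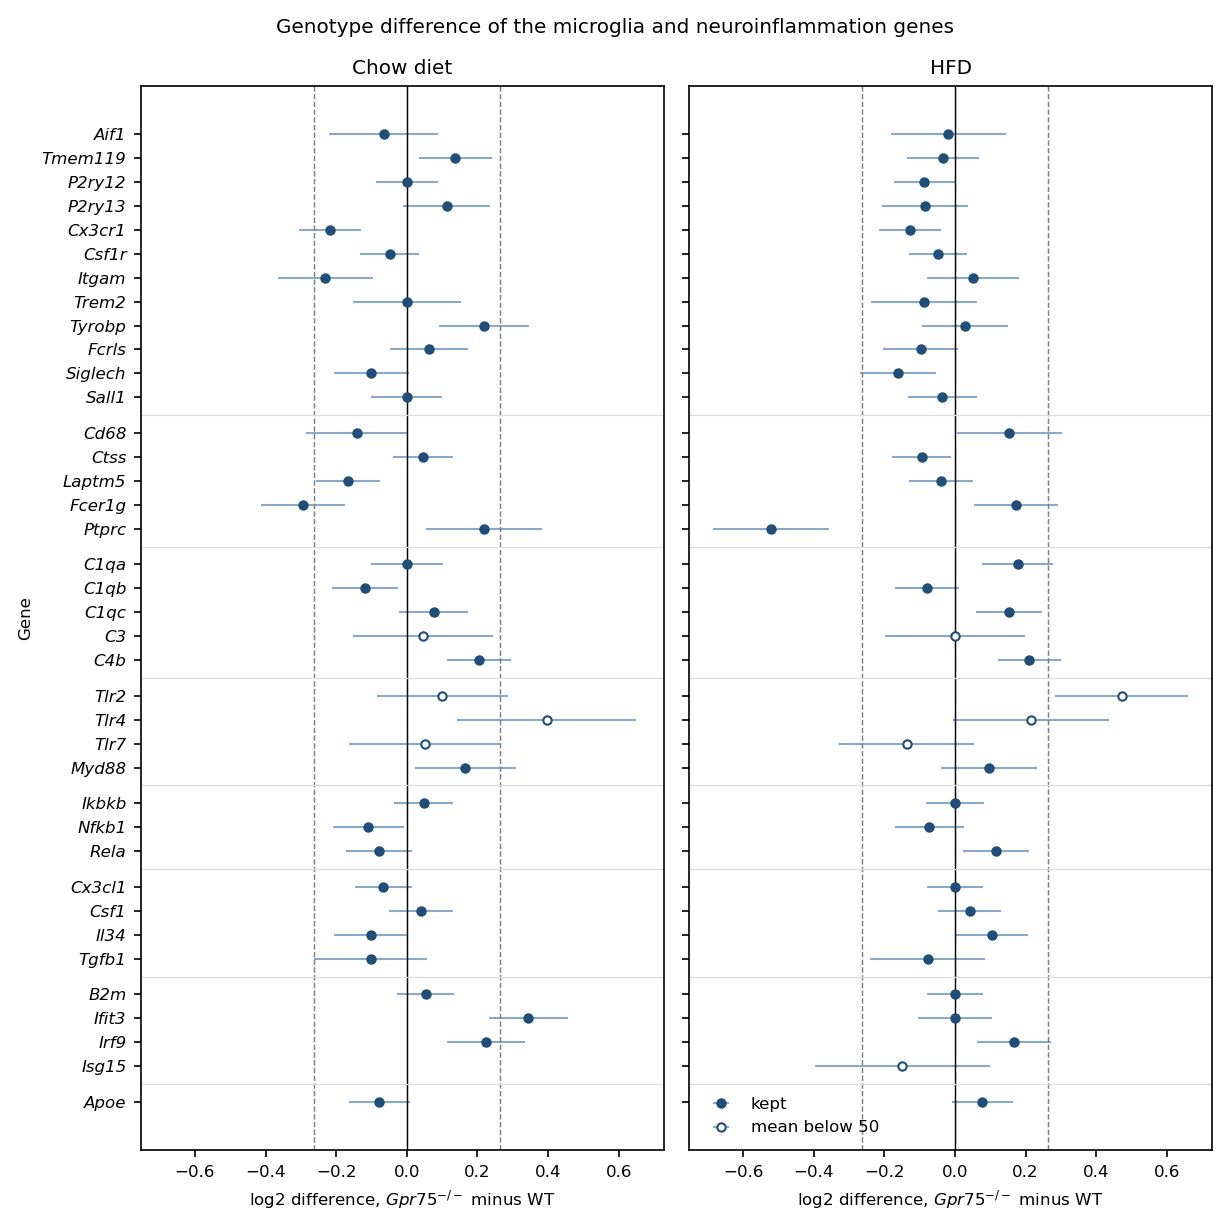
Log2 difference of *Gpr75-/-* minus WT for each member on chow (left) and on the HFD (right), in the order of their roles, with filled points for genes kept and open points for genes with a mean below 50 normalized counts. Bars give the error from counting added to that from rounding, dashed lines mark 1.2-fold, and *Ptprc* at −0.52 on the HFD lies farthest from 0.

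Among the 12 homeostatic microglia genes, none was past 1.2-fold on either diet. *Csf1r*, the receptor for CSF1 and IL-34 on which microglia depend for survival, was the most abundant in CPM. It was at 60.4 CPM in WT and 58.4 CPM in *Gpr75-/-* mice on each diet, a difference of −0.05. *Cx3cr1*, the fractalkine receptor, was at 41.2 CPM in WT and 35.4 CPM in *Gpr75-/-* mice on chow, and at 35.4 and 32.5 CPM on the HFD. Its differences, −0.22 and −0.13, had counting errors of 0.04 and 0.05 and were negative on both diets. *P2ry12*, the ADP receptor that steers microglial processes, was at 36.5 CPM in both genotypes on chow, and at 40.0 CPM in WT and 37.6 CPM in *Gpr75-/-* mice on the HFD. Of these 3 genes *Cx3cr1* lay farthest from its WT level, on chow near the lowest 5% of all genes, those below −0.23.

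On chow the differences of the other homeostatic genes ran in both directions. *Itgam*, which encodes CD11b, a part of complement receptor 3, had the lowest difference of the list, −0.23, from 7.02 CPM in WT to 5.98 CPM in *Gpr75-/-* mice. *Tyrobp*, the adaptor through which *Trem2* signals, had the highest, 0.22, from 7.15 to 8.32 CPM. *Trem2* itself was at 4.47 CPM in both genotypes. Each of the differences of *Itgam* and *Tyrobp* was about 2 times its counting error of 0.11 and 0.10. *Tmem119* and *P2ry13*, a microglial membrane protein gene and another ADP receptor gene, had differences of 0.14 and 0.11. *Sall1*, a transcription factor that keeps microglial identity, was at 18.4 CPM in both genotypes, and *Fcrls*, *Siglech* and *Aif1* had differences of 0.06, −0.10 and −0.06.

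On the HFD, 10 of the 12 homeostatic genes were lower in *Gpr75-/-* mice and 2 were higher, all by small amounts, with a median difference of −0.07. Only 7 of these 12 differences were larger than their rounding error. Over all genes kept on the HFD, 34.4% had a difference below 0 and 46.3% one above 0. *Siglech*, a microglial lectin of the sialic acid-binding family, had the lowest difference, −0.16, from 13.5 CPM in WT to 12.1 CPM in *Gpr75-/-* mice. *Itgam* had the highest, 0.05, from 6.53 to 6.76 CPM, and *Tyrobp* was at 8.16 and 8.32 CPM. The differences of the rest lay between −0.13 for *Cx3cr1* and −0.02 for *Aif1*, which encodes the microglial stain IBA1 and was at 3.50 CPM in WT and 3.46 CPM in *Gpr75-/-* mice. Summed over the list, the level was 229 CPM in WT and 223 CPM in *Gpr75-/-* mice on chow, and 228 and 217 CPM on the HFD. In bulk tissue, fewer microglia and less RNA per microglial cell cannot be told apart.

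The 5 genes of myeloid lysosomes and Fc receptors held 2 of the 3 members past the fold. *Fcer1g* (ENSMUSG00000058715, chromosome 1, 171057141 to 171061934, GRCm39) was at 10.4 CPM in WT and 8.48 CPM in *Gpr75-/-* mice on chow, and at 8.48 and 9.56 CPM on the HFD. Its difference was −0.29 on chow and 0.17 on the HFD, each with a counting error of 0.09, so it was lower on one diet and higher on the other. *Ptprc* (ENSMUSG00000026395, chromosome 1, 137990599 to 138103446) went the opposite way. It was at 3.37 CPM in WT and 3.92 CPM in *Gpr75-/-* mice on chow, and at 4.15 and 2.89 CPM on the HFD, with differences of 0.22 and −0.52. Its counting error of 0.14 on each diet was the largest of the members kept, and its means were 67.4 and 69.7 normalized counts.

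*Ctss*, which encodes cathepsin S, the protease that trims the MHC class II invariant chain, was the most abundant of these 5 genes. It was at 49.7 CPM in WT and 51.3 CPM in *Gpr75-/-* mice on chow, and at 56.5 and 53.0 CPM on the HFD, with differences of 0.05 and −0.09. *Laptm5*, a lysosomal membrane protein gene of blood cells and microglia, was at 33.4 and 29.8 CPM on chow and at 29.0 and 28.2 CPM on the HFD, with differences of −0.17 and −0.04. *Cd68*, a lysosomal glycoprotein gene used to mark phagocytic microglia, was at 5.50 and 4.98 CPM on chow and at 4.27 and 4.75 CPM on the HFD. Its differences of −0.14 and 0.15 had counting errors of 0.12 and 0.13. The 5 genes thus shared no direction on either diet.

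Complement tags material for uptake, and microglia make the 3 chains of C1q, the first component of its classical pathway. *C1qa* was at 17.1 CPM in both genotypes on chow, and at 16.3 CPM in WT and 18.4 CPM in *Gpr75-/-* mice on the HFD. *C1qc* was at 21.5 and 22.7 CPM on chow and at 22.1 and 24.6 CPM on the HFD. *C1qb* was at 26.6 and 24.6 CPM on chow and at 27.4 and 25.9 CPM on the HFD. The chains assemble into a single complex, yet their differences did not share a sign: on the HFD they were 0.18 for *C1qa*, 0.15 for *C1qc* and −0.08 for *C1qb*, with counting errors of 0.06, 0.06 and 0.05. Per kilobase of exon, in WT mice on chow, *C1qb* was at 24.5, *C1qa* at 16.5 and *C1qc* at 11.1 CPM per kb.

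*C4b* (ENSMUSG00000073418, chromosome 17, 34947354 to 34962856, GRCm39) encodes complement C4, which C1 cleaves and which astrocytes and oligodendrocytes also make. It was at 28.2 CPM in WT and 32.5 CPM in *Gpr75-/-* mice on chow, and at 31.5 and 36.5 CPM on the HFD. Its difference, 0.21 on each diet with a counting error of 0.05, stayed under the fold on both. Its neighbor *C4a* is close to identical in sequence, so the level of either gene is uncertain, and *C4a* was at 1.52 and 2.14 CPM on chow and at 1.82 and 2.30 CPM on the HFD. *C3*, on which the pathways of complement meet, was below the minimum with means of 42.7 and 41.9 normalized counts, and its differences were 0.05 and 0.00.

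Of the 3 toll-like receptor genes, none reached the minimum on either diet. *Tlr4*, the receptor for lipopolysaccharide, had a mean of 24.2 normalized counts on chow and was at 1.13 CPM in WT and 1.48 CPM in *Gpr75-/-* mice. Its difference of 0.40 had a counting error of 0.24, and on the HFD its difference was 0.21 with an error of 0.21. *Tlr2*, the receptor for bacterial lipoproteins, was at 2.06 CPM in WT and 2.86 CPM in *Gpr75-/-* mice on the HFD, a difference of 0.47 with a counting error of 0.17, and at 2.60 and 2.79 CPM on chow. At a mean of 48.9 normalized counts it lay just under the minimum, and it would be past the fold without that limit. *Tlr7*, a sensor of single-stranded RNA on the X chromosome, had differences of 0.05 and −0.14 with counting errors of 0.20 and 0.18. *Myd88*, the adaptor these receptors share, was kept, at 5.06 and 5.68 CPM on chow and at 5.50 and 5.88 CPM on the HFD, with differences of 0.17 and 0.10.

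The NF-κB genes, whose products carry signals from toll-like and cytokine receptors to the nucleus, lay near 0. *Ikbkb*, the kinase that marks the inhibitor of NF-κB for destruction, was at 60.4 CPM in WT and 62.4 CPM in *Gpr75-/-* mice on chow, and at 62.4 CPM in both on the HFD. *Rela*, which encodes the p65 subunit, was at 27.4 and 25.9 CPM on chow and at 23.3 and 25.2 CPM on the HFD, with differences of −0.08 and 0.12. *Nfkb1*, which encodes p50 and its precursor, was at 19.4 and 18.0 CPM on chow and at 18.9 and 18.0 CPM on the HFD, with differences of −0.11 and −0.07. These proteins are regulated mainly by their location and modification, which mRNA levels do not show.

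Among the cytokines that act on microglia, none differed by as much as 0.11 on either diet. *Cx3cl1*, the fractalkine that neurons make and *Cx3cr1* binds, was at 419.8 CPM in WT and 400.7 CPM in *Gpr75-/-* mice on chow, and at 400.7 CPM in both on the HFD. *Csf1* was at 29.8 and 30.7 CPM on chow and at 30.7 and 31.5 CPM on the HFD. *Il34*, the neuronal ligand of *Csf1r*, was at 15.9 and 14.8 CPM on chow and at 15.6 and 16.7 CPM on the HFD, with differences of −0.10 and 0.10. *Tgfb1*, which keeps microglia in their homeostatic state, was at 4.03 and 3.75 CPM on chow and at 3.55 and 3.37 CPM on the HFD, with differences of −0.10 and −0.08. *Apoe*, the lipid carrier made by astrocytes and by reactive microglia, was at 1206 and 1142 CPM on chow and at 1142 and 1206 CPM on the HFD. That gap is 1 step of the rounded values. Per kilobase of exon, *Apoe* was the highest of the members in WT mice on chow, at 564 CPM per kb, with *B2m* at 119 and *Cx3cl1* at 107.

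The interferon genes held the other member past the fold on chow. *Ifit3* (ENSMUSG00000074896, chromosome 19, 34560931 to 34566131, GRCm39) was at 10.2 CPM in WT and 12.9 CPM in *Gpr75-/-* mice on chow, a difference of 0.34 with a counting error of 0.08, and at 14.5 CPM in both genotypes on the HFD. The WT mice on chow were the low group, and the other 3 groups lay between 12.9 and 14.5 CPM. Its neighbor *Ifit3b* is a near copy of it, so reads may be split between them, and *Ifit3b* was at 8.82 and 9.76 CPM on chow and at 9.97 and 10.6 CPM on the HFD. *Irf9*, which encodes the DNA-binding part of the factor that binds interferon response elements, was at 11.6 and 13.5 CPM on chow and at 13.5 and 15.2 CPM on the HFD. Its differences were 0.23 and 0.17, with counting errors of 0.08 and 0.07. *B2m*, the light chain of MHC class I, was at 102 and 106 CPM on chow and at 110.0 CPM in both on the HFD. *Isg15*, which encodes a ubiquitin-like protein, was not analysed on chow; on the HFD it was below the minimum, at 1.33 CPM in WT mice with a difference of −0.15 and a counting error of 0.24.

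Promoter windows of 300 bases from RefSeq (GRCm38.p6), each around the start of a gene, matched 28 of the 38 members, with 34 windows. They were searched on both strands for 3 motifs. The first was GAAA, any 2 bases and GAAA again, the letters of an interferon stimulated response element. The second was GAGGAAGT, the letters bound by the myeloid factor PU.1. The third was GGGNNTTCC, the form used here for NF-κB. NF-κB sites of another length or spacing were not searched. The interferon letters were in 6 of the 34 windows, those of *Aif1*, *B2m*, *Ctss*, *Ifit3*, *Isg15* and *Myd88*, and in 3.44% of all 32851 windows. The PU.1 letters were in 2, those of *C1qc* and *Ctss* (3.20% of all windows), and the NF-κB letters in 2, those of *Sall1* and *Tlr2* (5.82%). The windows of the interferon list with a match are shown because *Ifit3* was past the fold on chow; capitals mark the interferon letters on either strand, and those of *Isg15* overlap. The windows are chr19:34583279-34583578 on the plus strand for *Ifit3*, chr4:156200769-156201068 on the minus strand for *Isg15*, and chr2:122147437-122147736 on the plus strand for *B2m*.
Ifit3: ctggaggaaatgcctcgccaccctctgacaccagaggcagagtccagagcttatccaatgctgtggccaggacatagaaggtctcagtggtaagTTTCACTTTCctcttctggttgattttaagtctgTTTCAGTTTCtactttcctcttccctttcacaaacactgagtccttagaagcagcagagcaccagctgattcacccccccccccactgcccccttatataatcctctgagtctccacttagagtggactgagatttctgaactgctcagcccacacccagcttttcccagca
Isg15: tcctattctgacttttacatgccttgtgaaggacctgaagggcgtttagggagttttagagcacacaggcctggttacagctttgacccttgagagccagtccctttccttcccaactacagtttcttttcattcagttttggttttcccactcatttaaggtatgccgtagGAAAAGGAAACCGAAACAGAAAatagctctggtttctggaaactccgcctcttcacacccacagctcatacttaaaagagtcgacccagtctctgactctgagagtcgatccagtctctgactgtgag
B2m: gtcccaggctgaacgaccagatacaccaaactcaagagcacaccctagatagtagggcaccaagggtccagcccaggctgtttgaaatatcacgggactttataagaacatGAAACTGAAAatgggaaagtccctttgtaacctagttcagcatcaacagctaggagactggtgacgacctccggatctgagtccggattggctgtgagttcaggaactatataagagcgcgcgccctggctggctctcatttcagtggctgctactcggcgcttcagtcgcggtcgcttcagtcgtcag
*Ifit3* holds 2 matches, *Isg15* 3 and *B2m* 1, and the 2 windows of *Irf9* hold none of the 3 motifs. A match describes the letters alone.

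The genotype difference was compared between the diets as the difference on the HFD minus that on chow, within the 33 members kept on both. Of these, 5 were past 1.2-fold, 3 higher and 2 lower, where 10.6% of all 14112 genes kept on both diets were (5.61% higher and 4.95% lower). *Ptprc* was lowest at −0.74, with a counting error of 0.20, and *Ifit3* followed at −0.34 with an error of 0.11. *Fcer1g* was highest at 0.47, with an error of 0.13, and *Cd68* and *Itgam* were at 0.29 and 0.28 with errors of 0.17 and 0.15. *Ptprc*, *Fcer1g*, *Cd68* and *Itgam* are all myeloid genes, and *Ptprc* moved against the other 3. The median over the members was 0.00, as it was over all genes. Whether any of these differences between the diets exceeds the variation between mice was not tested.

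To look for a mark of the diet, levels on the HFD were set beside those on chow within each genotype. The tables of the diets were normalized separately, so these log2 ratios are descriptions of levels in CPM. In WT mice, 5 of the 33 members were past 1.2-fold, 2 higher and 3 lower on the HFD, where 10.3% of all genes were (3.93% higher and 6.35% lower). *Ifit3* was higher by 0.51 and *Ptprc* by 0.30. *Cd68*, *Aif1* and *Fcer1g* had ratios of −0.36, −0.33 and −0.29. In *Gpr75-/-* mice, 2 of 33 were past the fold, 0 higher and 2 lower, where 7.41% of all genes were (2.41% higher and 4.996% lower). *Ptprc* had a ratio of −0.44 and *Aif1* one of −0.28. The median ratio of the members was 0.04 in WT and 0.00 in *Gpr75-/-* mice, and 0.00 over all genes in both.

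By role, of the lists with more than 1 gene kept, the interferon list alone had all its genes, 3 of 3, higher on the HFD in both genotypes. The wider interferon list did not share this: 7 of its 18 genes were higher and 11 lower in WT mice, and 10 were higher and 8 lower in *Gpr75-/-* mice. Over all genes, 41.9% were higher and 45.4% lower on the HFD in WT mice, and 46.1% higher and 38.5% lower in *Gpr75-/-* mice. *Irf9* had ratios of 0.23 in WT and 0.17 in *Gpr75-/-* mice, *Ifit3* 0.51 and 0.17, and *B2m* 0.11 and 0.05. *C4b* was higher by 0.16 and 0.17. Of the 12 homeostatic genes, 6 were higher and 4 lower on the HFD in WT mice, and 2 higher and 7 lower in *Gpr75-/-* mice. *Cx3cr1* had ratios of −0.22 and −0.13, and *Csf1r* 0.00 in both. In the NF-κB list *Rela* had ratios of −0.24 and −0.04, while *Nfkb1* and *Ikbkb* were within 0.05 of 0 in both genotypes. Of the cytokines acting on microglia, *Tgfb1* had ratios of −0.18 and −0.16, *Il34* −0.03 and 0.17, *Csf1* 0.04 and 0.04, and *Cx3cl1* −0.07 and 0.00.

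**Figure D2:**
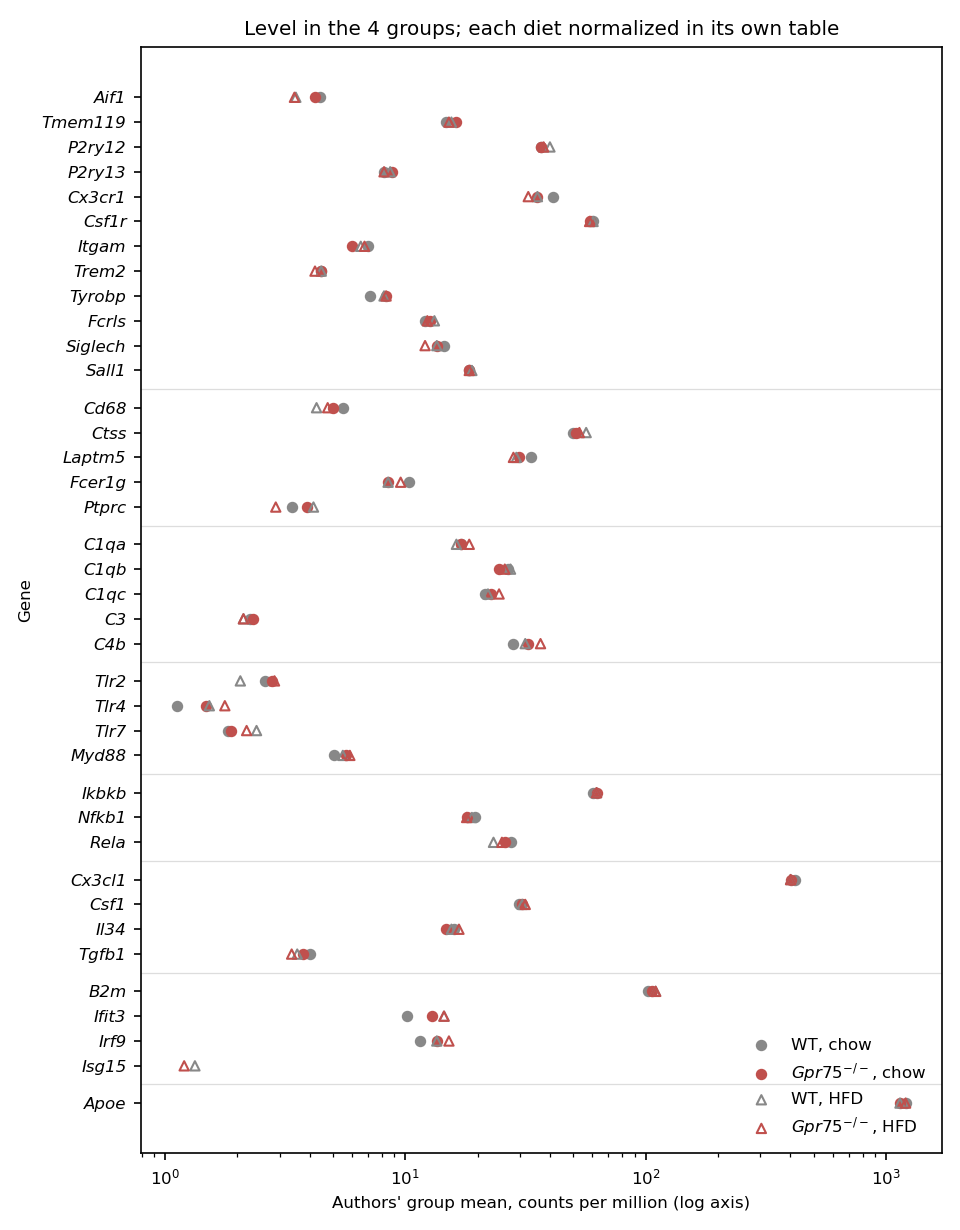
Level of each member in the 4 groups, as the authors' mean in CPM on a log axis, for WT (grey) and *Gpr75-/-* mice (red) on chow (filled circles) and on the HFD (open triangles), with each diet normalized in its own table. *Apoe* at 1206 CPM and *Tlr4* at 1.13 CPM in WT mice on chow mark the ends among genes with 4 values, and WT on chow stands apart for *Ifit3*.

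Other genes of the same pathways were described from 8 of 9 further lists, and the list of cytokine receptors and signalling was not used here. For counts past the fold, the share over all genes was 6.97% on chow and 5.03% on the HFD. Of 17 other microglia genes kept on each diet, 0 were past the fold on chow and 1 on the HFD, *Cd33*, an inhibitory lectin gene, at 6.19 CPM in WT and 5.15 CPM in *Gpr75-/-* mice. On chow *Cd33* was at 6.30 and 5.32 CPM, with differences of −0.24 and −0.27 on the 2 diets. On chow 13 of these 17 genes were lower in *Gpr75-/-* mice and 1 was higher, *Mertk*, with a median of −0.11, where 40.4% of all genes were lower and 43.3% higher. On the HFD 8 were lower and 7 higher, with a median of 0.00.

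Of 9 genes of activated microglia kept on each diet, 2 were past the fold on chow and 2 on the HFD. The shares over all genes were 6.97% and 5.03%. By sign, 4 of the 9 genes were higher and 4 lower in *Gpr75-/-* mice on chow, with a median of 0.00. On the HFD 7 were higher and 1 lower, with a median of 0.09, where 46.3% of all genes were higher and 34.4% lower. *Lyz2*, the lysozyme gene of myeloid cells, was higher on both diets, at 4.75 and 5.98 CPM on chow and at 5.40 and 6.89 CPM on the HFD, with differences of 0.33 and 0.35. *Spp1*, which encodes osteopontin, was at 13.2 and 12.4 CPM on chow and at 14.5 and 19.4 CPM on the HFD, with differences of −0.10 and 0.42. *Lpl*, which encodes lipoprotein lipase and is also made by neurons and vessel cells, was at 6.53 and 4.91 CPM on chow and at 5.15 and 4.68 CPM on the HFD, with differences of −0.41 and −0.14. The lysosomal protease genes *Ctsb* and *Ctsd* were within 0.12 of 0 on both diets. *Cst7*, *Itgax*, *Clec7a* and *Cybb* were not analysed here.

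Among other complement genes, *Serping1*, the inhibitor of C1, was past the fold on the HFD, at 8.48 and 10.4 CPM with a difference of 0.29, and at 6.19 and 6.64 CPM on chow. It was the 1 of 10 genes kept on the HFD, and 0 of 9 were past the fold on chow. Over all genes, 5.03% were past it on the HFD and 6.97% on chow. In the toll-like receptor pathway 1 of 11 was past the fold on chow, *Tlr3*, a sensor of double-stranded RNA, at 13.2 and 16.3 CPM with a difference of 0.30, and 0 of 11 on the HFD. In the NF-κB pathway *Relb* had a difference of −0.29 on chow, from 2.999 to 2.46 CPM, as the 1 of 13 past the fold. *Rel* was the 1 of 11 on the HFD, at −0.35, from 3.60 to 2.82 CPM. *Nfkbia*, an inhibitor gene that NF-κB itself induces, was at 27.4 and 31.5 CPM on chow and at 37.6 and 41.2 CPM on the HFD, with differences of 0.20 and 0.13.

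Of 7 other cytokine and chemokine genes kept on each diet, 0 were past the fold, where 6.97% of all genes were on chow and 5.03% on the HFD. *Il18* had the lowest difference on chow, −0.19, from 22.7 to 19.9 CPM, and *Il33*, an alarmin gene of glia, was at 119 and 123 CPM on chow and at 110.0 CPM in both on the HFD. *Il1b*, *Il6*, *Tnf*, *Il10*, *Ccl2* and *Ccl5* were not analysed here.

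Of 18 other interferon response genes kept on each diet, 1 was past the fold on each. The shares over all genes were 6.97% on chow and 5.03% on the HFD. *Ifitm3*, an antiviral membrane protein gene, was at 8.82 and 7.28 CPM on chow, a difference of −0.28, so it lay opposite to *Ifit3*. *Irf3*, which turns on interferon genes after viral sensing, was at 14.8 and 18.0 CPM on the HFD, a difference of 0.28. The close relatives of *Ifit3* were higher by less on chow, with differences of 0.11 for *Ifit1*, 0.08 for *Ifit2* and 0.15 for *Ifit3b*. *Stat2*, the most abundant gene of this list, had a difference of 0.08 on each diet. Of 8 MHC genes kept on each diet, *Tap1*, a peptide transporter gene, was past the fold on both, at 2.999 and 2.49 CPM on chow and at 3.04 and 2.49 CPM on the HFD, with differences of −0.27 and −0.29.

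Markers of other cells that reach or surround microglia were measured beside the members. All 5 red blood cell genes were higher in *Gpr75-/-* mice on chow and all 5 were lower on the HFD. Their summed level was 277 CPM in WT and 443 CPM in *Gpr75-/-* mice on chow, and 314 and 280 CPM on the HFD. *Hbb-bs*, the most abundant, was at 85.2 and 144 CPM on chow and at 102 and 94.9 CPM on the HFD. *Hbb-bs* and *Hbb-bt* are near copies, as are *Hba-a1* and *Hba-a2*, so the level of each is uncertain. The part of blood left in the tissue in the differences of *Ptprc*, *Fcer1g* and *Ifit3* was not tested. Of 14 markers of monocytes, neutrophils and lymphocytes, 0 were analysed on chow and 1 on the HFD, *Ly6c2*, at 1.32 and 1.28 CPM.

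All 8 choroid plexus genes had values on chow, and in *Gpr75-/-* mice the 4 kept stood higher by a median of 0.81. Their summed level, over all 8, was 42.0 CPM in WT and 71.5 CPM in *Gpr75-/-* mice. *Clic6* was the most abundant by the group means in WT mice, at 20.95 CPM in WT and 27.4 CPM in *Gpr75-/-* mice. *Ttr*, the defining gene, was at 5.59 and 12.9 CPM on chow, while its mean signal over the 6 mice came to 159 CPM. *Kl* showed the same on chow, at 6.64 and 15.9 CPM with a mean signal of 19.5 CPM, and *Kcnj13*, *Slc4a5* and *Cldn2* had a deposited mean of 0 in WT mice, which reads as 1 CPM. With the group means read as geometric means, such a gap for *Ttr* means that its reads were spread unevenly over the mice. Which mice held them, and whether 1 mouse carries the group difference, cannot be told from these values. On the HFD, where 4 of the 8 were analysed and 3 kept, the summed level was 35.2 and 34.2 CPM. There *Otx2* was past the fold and lower, at −0.30, and *Ttr*, below the minimum, was at 3.60 and 1.35 CPM, both opposite to chow. *Kl* and *Clic6* were higher in *Gpr75-/-* mice, as on chow, with differences of 0.16 and 0.11. The median of the 3 kept was 0.11.

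Of 8 perivascular macrophage genes, 3 had values and 0 were kept on either diet. *F13a1*, the most abundant, was at 1.51 and 2.33 CPM on chow and at 2.28 and 2.23 CPM on the HFD, and the summed level was 4.32 and 5.41 CPM on chow and 5.98 and 5.86 CPM on the HFD. Oligodendrocyte genes were lower in *Gpr75-/-* mice in 10 of 10 cases on each diet, with median differences of −0.16 and −0.28. Past the fold were 2 of them on chow and 6 on the HFD, where 6.97% and 5.03% of all genes were. The summed level of the oligodendrocyte genes was 7191 and 6491 CPM on chow and 7834 and 6827 CPM on the HFD. *Mbp* was the most abundant. Astrocyte genes had a median difference of 0.03 on chow and 0.00 on the HFD, and their summed level was 3516 and 3529 CPM on chow and 3575 and 3676 CPM on the HFD. Of the reactive astrocyte genes 6 of 9 had values, and 0 were past the fold on either diet. By sign, 4 were higher and 1 lower in *Gpr75-/-* mice on chow, and 4 higher and 2 lower on the HFD. *Vim*, an intermediate filament gene, had differences of 0.26 and 0.23, *Serpina3n*, the most abundant, 0.00 and 0.20, and *Gfap*, from the astrocyte list, 0.00 and 0.06. As HFD to chow ratios in WT and *Gpr75-/-* mice, *Serpina3n* had 0.19 and 0.39 and *Gfap* 0.23 and 0.29. In *Gpr75-/-* mice each was the 1 gene of its list past the fold, where 7.41% of all genes were. Of the 6 reactive genes, 5 were higher and 1 lower on the HFD in WT mice. In *Gpr75-/-* mice 4 were higher and 2 lower. Of the 10 astrocyte genes, 5 were higher and 4 lower in each genotype. Of the hypothalamic neuron markers 2 of 13 kept were past the fold on chow, 1 higher and 1 lower, with summed levels of 831 and 856 CPM. On the HFD 7 of 12 kept were past it, all higher in *Gpr75-/-* mice, with summed levels of 813 and 975 CPM. Over all genes, 6.97% were past the fold on chow. On the HFD 5.03% were, with 2.74% higher. General neuron and endothelial markers held 0 past the fold on either diet. The part of these cells in the differences of the members was not tested.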

How the data were processed

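Libraries were prepared from hypothalamus RNA with a SMART-Seq mRNA kit and sequenced as paired reads. The submitters' processing notes name STAR, featureCounts, StringTie, DESeq2 and the build GRCm39, with no versions. The authors deposited 1 table per diet, and each holds 2 measurements used here. The signal the authors deposited for a gene is the mean over the 6 mice of counts divided by size factors. It sums to 18280462 for chow and 19420111 for the HFD, taken as the mean depth of a mouse; the totals of each mouse were not used here. The deposited group means are taken to be log2 values of 1 plus the mean log2 CPM of 3 mice, rounded by the authors to 2 decimals. The headers do not state that scale. It was settled by comparing the means, returned to log2 CPM, with the log2 of the signal scaled to CPM. The 2 differed by a median of at most 0.03, in units of log2 CPM, in each class from 1 CPM up. Below 1 CPM, in 77 genes on chow and 62 on the HFD, that scale does not hold. The other columns hold the authors' own fold changes, standard errors, test statistics and p-values, and were not used.

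Group means were returned to CPM on that reading, under which they are geometric means, and compared within a table. The order of averaging and the last log cannot be told apart from the values. The counting error took the reads of a group as 3 times its CPM share of the table's summed signal, so it assumes size factors near 1. Tests on counts had been planned should values of single mice turn up, and were not run. Genes named are all members, and from the other lists those past 1.2-fold and set examples; *Mertk*, *Ctsb*, *Ctsd*, *Nfkbia*, *Il18*, *Il33*, *Ifit1*, *Ifit2*, *Ifit3b*, *Stat2*, *C4a*, *Gfap* and *Vim* were chosen after their values were seen. The C1q protein sequences were not used here. The members and lists were chosen with earlier results of these data known. Exon lengths are the joined exons of GENCODE M21, matched by Ensembl identifier for all 38 members, with no coordinates taken from it. Python 3.11.15, numpy 2.4.6, pandas 2.3.3 and matplotlib 3.10.9 were used. The steps were tested on data simulated with 1.5-fold changes, on the scale assumed here and with a set variation between mice. That test cannot check the reading of the scale or the real variation between mice.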

Additional observations from a re-analysis of the deposited data

How the results depend on the processing

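The 7 summary values were recomputed under 36 alternatives, 4 of them chosen after seeing the data, and 27 changed a count by at most 1.5 times or a median by less than 0.04, the typical rounding error of a member. A reversed sign was looked for only in a median past the fold, and no main median was past it, so none could be found. On chow, the 2 members past the fold became 3 of 37 with no minimum (11.5% of all genes). They became 1 of 23 with a minimum of 200 normalized counts (2.76%), 11 of 33 at 1.1-fold (25.1%) and 0 at 1.5-fold (0.513%). The count was 1 without *C4b* and *Ifit3*, which have near-identical copies. On the HFD, the 1 member became 2 of 38 with no minimum (8.74% of all genes) and 0 of 23 with a minimum of 200 (1.75%). It became 8 of 33 at 1.1-fold (20.8% of all genes) and 0 at 1.5-fold (0.272%). These follow from the thresholds themselves. The median HFD to chow ratio in *Gpr75-/-* mice was 0.0413 with a minimum of 200, against 0.00. Counts held at the near end of the rounding interval, also an added choice. No paired analysis was possible because the tables hold group means and no values of single mice, and for the same reason the replicate block and leaving out each mouse in turn were not run. Depth limits *Tlr2*, *Tlr4*, *Tlr7*, *C3* and *Isg15* most, with counting errors of 0.17 to 0.24.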
